A study of Arabidopsis thaliana with 27 samples.

Results

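bZIP58 (AT1G13600) and 4 genes next to it on chromosome 1, AT1G13607, AT1G13608, AT1G13609 and AT1G13610, make up the 5 genes described here, of 33602 in the table. They were chosen by gene identifier because the neighbours stood opposite to bZIP58 in Fe lack, so their levels against the +Fe+P control are given as a description, with no test. What was tested is how they differed between the media lacking Fe, and how they changed with time.

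Shoots of wild-type Arabidopsis thaliana (Col-0) were sampled in all groups. Plants were kept for 7 days on +Fe+P agar medium in continuous light, and then moved to +Fe+P (the control), −Fe+P (Fe left out) or −Fe−P (Fe left out and P lowered, with a small amount of phosphate remaining). Shoots were taken after 39, 52 or 76 h on the new medium, which gave 9 groups of 3 biological replicates, 27 samples in all. mRNA levels are in TPM (transcripts relative to the whole library, a measure corrected for gene length and for sequencing depth). Comparing different genes relies on the gene lengths used, which for most genes differed from the gene models used here for positions. Samples held 25.6 to 56.5 megareads (median 44.2), as recovered from the steps in the values. The 4 shoot markers (Rubisco small subunit, antenna and photosystem I genes) summed to 36041 TPM or more in every sample, and the 8 root markers summed to 49.0 TPM or less. In −Fe−P at 39 h, replicate 1 stood apart, with 671 genes at least 2-fold away from its mates against 229 or fewer in any other sample, and with 54.2 TPM of the 5 seed storage markers against 6.98 TPM or less elsewhere.

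bZIP transcription factors bind DNA as dimers through a basic region followed by a leucine zipper. bZIP58 is usually placed among the small group S proteins, some of which are known to pair with those of group C. Pairing of bZIP58 itself was not tested. Defensin-like proteins are short secreted peptides held together by disulfide bridges between cysteines. Defensins are best known for antimicrobial roles, and most of the large defensin-like family of Arabidopsis has no assigned function. Alpha/beta hydrolases share a fold and include esterases, lipases and hormone receptors. Plants lacking Fe lose chlorophyll, and the chlorosis is known to depend on phosphate supply. The study turned to bZIP58 as a candidate regulator of photosynthesis genes, found by association mapping. In its mutant the study reported lower expression of such genes and less chlorophyll. Chlorophyll was also measured there in insertion mutants of the neighbours.

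On RefSeq TAIR10.1, bZIP58 is a single-exon gene on the minus strand of chromosome 1 (chr1:4650606-4651549). AT1G13607 (chr1:4660778-4661331), AT1G13608 (chr1:4661682-4662428) and AT1G13609 (chr1:4662698-4663253) are defensin-like genes in a row on the plus strand, each with 2 exons. AT1G13610 (chr1:4663831-4666130) is a gene of the alpha/beta hydrolase superfamily with 6 exons on the minus strand. Between bZIP58 and AT1G13607 lie 9228 bp, which hold AT1G13605, also annotated as defensin-like. The gaps between the other members are 350, 269 and 577 bp. AT1G13609 and AT1G13610 point towards each other. The strand of the libraries is not given in the sources used here, so reads running past the end of either gene cannot be told apart by strand.

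**Figure D1:**
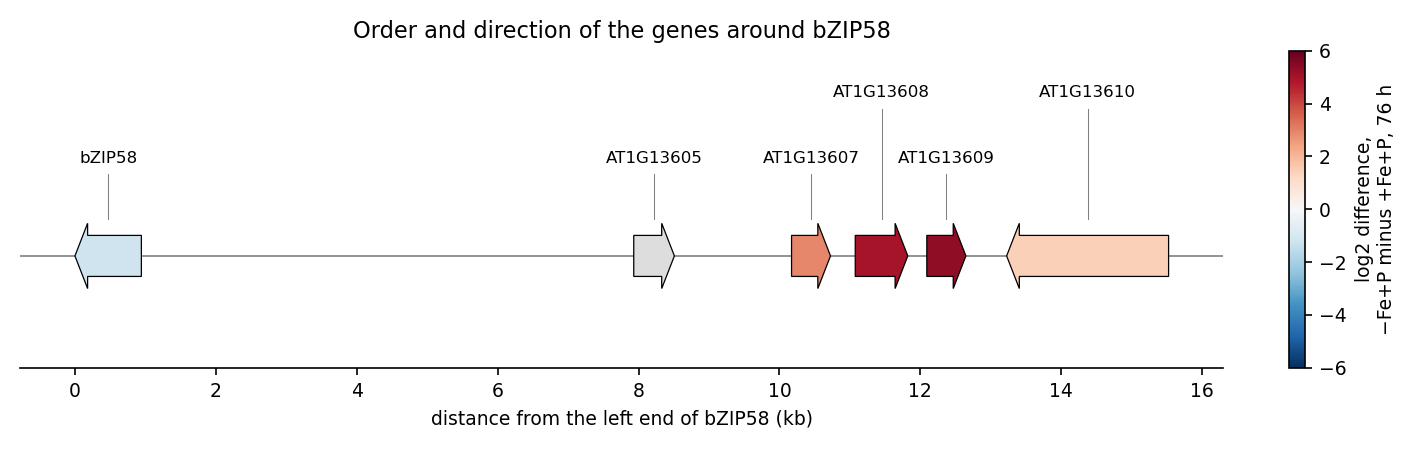
Map of the locus. The horizontal axis is the distance in kb from the left end of bZIP58, and arrows show each gene to scale in its direction of transcription. The colour is the log2 difference of −Fe+P minus +Fe+P at 76 h, −1.25 for bZIP58 and between 1.44 and 5.30 for the 4 neighbours, while AT1G13605 is grey because its level was under the minimum.

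The defensin-like members are related in sequence, and their coding sequences are shown because the 3 genes differed so much in level. They come from the RefSeq TAIR10.1 models, and in-frame cysteine codons are in capitals.
AT1G13607: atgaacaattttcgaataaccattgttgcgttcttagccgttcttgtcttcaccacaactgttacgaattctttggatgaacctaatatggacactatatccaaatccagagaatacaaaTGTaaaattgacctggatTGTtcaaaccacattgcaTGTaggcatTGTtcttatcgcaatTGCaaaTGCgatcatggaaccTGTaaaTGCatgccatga
AT1G13608: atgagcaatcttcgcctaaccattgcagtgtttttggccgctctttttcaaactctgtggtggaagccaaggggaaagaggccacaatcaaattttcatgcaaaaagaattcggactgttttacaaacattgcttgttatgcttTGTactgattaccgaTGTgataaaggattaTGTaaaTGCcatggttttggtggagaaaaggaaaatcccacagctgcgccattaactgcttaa
AT1G13609: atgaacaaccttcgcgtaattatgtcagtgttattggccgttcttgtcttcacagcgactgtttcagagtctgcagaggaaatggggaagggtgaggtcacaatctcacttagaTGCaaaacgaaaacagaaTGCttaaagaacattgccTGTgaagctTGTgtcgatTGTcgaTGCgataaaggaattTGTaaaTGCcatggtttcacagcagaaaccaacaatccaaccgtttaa
AT1G13607 and AT1G13609 carry 8 cysteine codons each, in 72 and 78 codons. The annotated frame of AT1G13608 has 78 codons and carries 4. In alignment, 80.0% of the aligned coding bases were identical between AT1G13607 and AT1G13608 (144 of 180). The share was 77.0% between AT1G13608 and AT1G13609 (167 of 217) and 74.9% between AT1G13607 and AT1G13609 (149 of 199). Positions with a gap were left out, so these shares are higher than over the full coding lengths. The longest exact run shared by any pair of their transcripts was 17 bp. The annotation marks the models of AT1G13607 and AT1G13608 as incomplete.

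The windows from 250 bases before to 50 bases after the annotated start are shown for bZIP58 (chr1:4651500-4651799, minus strand) and AT1G13609 (chr1:4662448-4662747, plus strand), the members that stood furthest apart in Fe lack.
bZIP58: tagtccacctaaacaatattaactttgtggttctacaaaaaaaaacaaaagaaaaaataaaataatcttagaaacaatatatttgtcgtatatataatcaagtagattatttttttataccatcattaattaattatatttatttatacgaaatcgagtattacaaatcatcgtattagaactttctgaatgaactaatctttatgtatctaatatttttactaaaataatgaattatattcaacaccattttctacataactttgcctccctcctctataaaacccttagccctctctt
AT1G13609: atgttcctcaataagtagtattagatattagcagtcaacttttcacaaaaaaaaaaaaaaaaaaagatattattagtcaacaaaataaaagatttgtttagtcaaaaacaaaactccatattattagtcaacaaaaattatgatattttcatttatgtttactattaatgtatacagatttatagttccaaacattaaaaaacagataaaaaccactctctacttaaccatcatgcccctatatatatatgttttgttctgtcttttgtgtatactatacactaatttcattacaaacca
In such windows of the 5 members, both strands were searched for CACGTG (G-box), GACGTC (C-box), CANNTG (E-box, which includes the G-box) and GNATATNC (P1BS, known as the site of PHR1, the main regulator of phosphate starvation genes). No member held a G-box, a C-box or a P1BS, against 7.68%, 2.88% and 6.25% of 27443 windows of the same length. An E-box was found in AT1G13607 (CAAATG) and AT1G13608 (CATATG), and 61.7% of all windows hold 1 or more. These matches describe letters in the window and not binding.

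bZIP58 mRNA was rare in all samples, from 1.05 to 4.60 TPM, on 23 to 110 reads per sample (median 53). In +Fe+P, its 3 samples held 3.26, 2.93 and 3.31 TPM at 39 h, 4.01, 3.28 and 4.60 TPM at 52 h, and 2.84, 4.60 and 4.0 TPM at 76 h. In −Fe+P, they held 1.75, 2.33 and 2.14 TPM at 39 h, 1.42, 1.52 and 1.45 TPM at 52 h, and 1.11, 1.79 and 1.05 TPM at 76 h. In −Fe−P, they held 1.14, 2.35 and 2.41 TPM at 39 h, 2.92, 2.33 and 3.69 TPM at 52 h, and 1.33, 2.70 and 2.49 TPM at 76 h. All −Fe+P samples were below all +Fe+P samples of the same time. The −Fe−P samples were below the +Fe+P samples at 39 and 76 h and overlapped them at 52 h. The ranking of the 9 groups by mean level ran from +Fe+P at 52 h (3.96 ± 0.661 TPM, SD, n = 3) down to −Fe+P at 76 h (1.31 ± 0.411 TPM), and no group was separated from the next in that ranking.

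AT1G13609 was the most abundant of the 5, at 976 TPM on average over all samples. That mean was the highest of all genes annotated as defensin-like, but in +Fe+P alone AT1G13609 was not the highest. There it averaged 163, 87.4 and 31.9 TPM at 39, 52 and 76 h. LCR69 averaged 305, 264 and 253 TPM and LCR68 212, 193 and 178 TPM in the same groups. AT1G13609 held 105, 93.7 and 291 TPM at 39 h, 63.0, 97.2 and 102 TPM at 52 h, and 29.3, 26.1 and 40.2 TPM at 76 h in +Fe+P. Samples of −Fe+P held 1358, 1569 and 1818 TPM at 39 h, 1596, 1514 and 1500 TPM at 52 h, and 1262, 1145 and 1358 TPM at 76 h. The −Fe−P samples held 1466, 1550 and 1945 TPM at 39 h, 1366, 1459 and 1511 TPM at 52 h, and 1026, 1019 and 1053 TPM at 76 h. The lowest sample in either medium lacking Fe was thus several times the highest +Fe+P sample. The group means of −Fe+P were 1581 ± 230 TPM at 39 h and 1255 ± 107 TPM at 76 h (SD, n = 3), against 163 ± 111 and 31.9 ± 7.41 TPM in +Fe+P.

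AT1G13608 was also higher in both media lacking Fe than in +Fe+P, at a far lower level, 19.0 TPM on average, on 3 to 406 reads. On the control medium it held 2.32, 0.527 and 4.84 TPM at 39 h, 1.09, 2.23 and 2.53 TPM at 52 h, and 0.602, 0.386 and 0.536 TPM at 76 h. The −Fe+P samples held 16.1, 47.0 and 18.1 TPM at 39 h, 27.2, 27.0 and 26.1 TPM at 52 h, and 32.8, 30.3 and 31.1 TPM at 76 h. Those of −Fe−P held 23.7, 24.5 and 51.4 TPM at 39 h, 28.3, 36.3 and 43.8 TPM at 52 h, and 10.3, 13.3 and 11.2 TPM at 76 h. Samples within a group lay close together at 76 h and differed by more than 2-fold at 39 h.

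AT1G13607, the defensin-like member nearest to bZIP58, was at the edge of detection in the fed shoots. On the control medium it held 0.256, 0.0921 and 0.871 TPM at 39 h, 0.152, 0.156 and 0.169 TPM at 52 h, and 0, 0 and 0.0936 TPM at 76 h, the last on 1 read in all. In −Fe+P it held 1.14, 6.95 and 2.34 TPM at 39 h, 3.21, 4.22 and 3.18 TPM at 52 h, and 4.01, 3.43 and 3.21 TPM at 76 h. The −Fe−P samples held 3.15, 4.89 and 6.82 TPM at 39 h, 4.18, 5.07 and 6.06 TPM at 52 h, and 1.40, 1.46 and 1.25 TPM at 76 h. All samples lacking Fe were above all +Fe+P samples of the same time. With reads pooled over the samples of a group, −Fe+P held 9.24 times the +Fe+P level at 39 h, 22.1 times at 52 h and 119 times at 76 h. These ratios are a description and rest on 13, 5 and 1 reads in +Fe+P. Samples were uneven in −Fe+P at 39 h, with 12, 86 and 26 reads.

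AT1G13610, the hydrolase gene, was as rare as bZIP58. On the control medium it held 0.486, 0.501 and 0.851 TPM at 39 h, 0.434, 0.544 and 0.742 TPM at 52 h, and 1.0, 0.768 and 0.678 TPM at 76 h. Samples of −Fe+P held 3.35, 3.10 and 4.73 TPM at 39 h, 4.11, 3.83 and 4.46 TPM at 52 h, and 3.46, 2.30 and 3.54 TPM at 76 h. Those of −Fe−P held 2.47, 2.40 and 2.44 TPM at 39 h, 1.82, 1.77 and 1.80 TPM at 52 h, and 0.602, 0.855 and 1.20 TPM at 76 h. The −Fe−P samples lay between the other media at 39 and 52 h, and overlapped +Fe+P at 76 h.

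**Figure D2:**
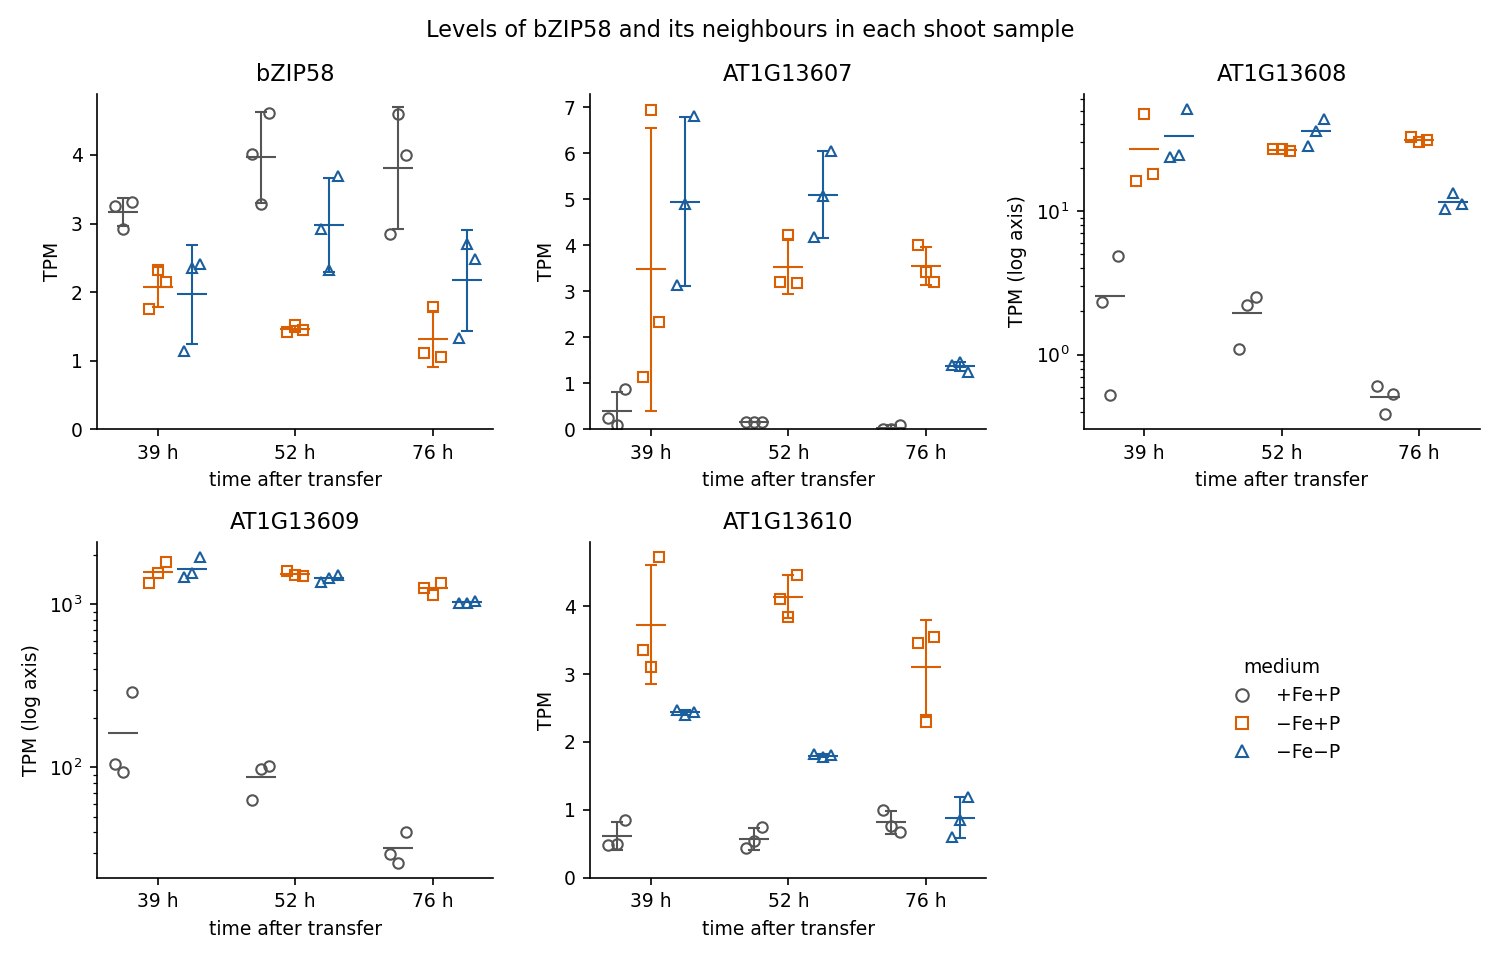
TPM of each gene in the 27 samples by time after transfer and medium. Open symbols are samples, horizontal lines are group means, and bars are the SD in the panels with a linear axis, while AT1G13608 and AT1G13609 have log axes and no bars. bZIP58 lay below the control under −Fe+P at every time, the neighbours were higher, and AT1G13610 in −Fe−P was down to 0.884 ± 0.298 TPM at 76 h.

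The values relative to +Fe+P chose these genes and are listed as a description, as differences of group means of log2(TPM + 0.5), a scale that understates changes of low genes. Under −Fe+P, in the order of the sampling times, bZIP58 was at −0.52, −1.18 and −1.25. AT1G13607 was at 1.94, 2.61 and 2.93, and AT1G13608 at 3.30, 3.53 and 4.99. AT1G13609 was at 3.46, 4.16 and 5.30, the 12th, 13th and 8th highest of 18910 genes tested. AT1G13610 was at 1.92, 2.12 and 1.44. At each time 4 members had all −Fe+P samples above all +Fe+P samples, as 21.5%, 38.8% and 42.5% of all genes had at 39, 52 and 76 h, and bZIP58 had them all below, as 11.5%, 5.30% and 16.2% had. The median gene was itself shifted by 0.16 and 0.11 at 52 and 76 h.

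In −Fe−P, which shares the +Fe+P samples with the values above, bZIP58 was at −0.62, −0.37 and −0.71. AT1G13609 was at 3.52, 4.07 and 5.02, AT1G13608 at 3.66, 3.93 and 3.58, and AT1G13607 at 2.62, 3.07 and 1.82. AT1G13610 was at 1.42, 1.11 and 0.06. At 39, 52 and 76 h, 4, 4 and 3 members had no overlap and were higher (22.4%, 34.4% and 39.4% of all genes), and 1, 0 and 1 had no overlap and were lower (11.9%, 13.4% and 25.6%). The median gene was shifted by 0.11 and 0.10 at 52 and 76 h.

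Whether P supply changed these levels under Fe lack was tested directly, −Fe−P against −Fe+P. This comparison was not used to choose the genes, but it shares its −Fe+P samples with the values that were. bZIP58 was higher in −Fe−P at 52 and 76 h, AT1G13610 was lower at 52 and 76 h, and AT1G13607 and AT1G13608 were lower at 76 h. AT1G13609, by far the most abundant, did not pass at any time in the fit of all groups. With only the groups compared in the fit it passed at 76 h as lower (−0.28, adjusted p = 0.0483). A gene passed at an adjusted p under 0.05 in limma, with Benjamini-Hochberg adjustment over 18910 genes.

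At 39 h none of the 5 passed in limma, against 2.87% of all genes higher and 2.07% lower, and 1 had an unadjusted p under 0.05. That was AT1G13610, whose log2 difference was −0.51 (SE 0.17, adjusted p = 0.104), with all −Fe−P samples lower, as 8.46% of genes had, and no member had them all higher, as 8.95% had. bZIP58 differed by −0.10 (SE 0.23, adjusted p = 0.899) and AT1G13609 by 0.06 (SE 0.27, adjusted p = 0.95). AT1G13607 differed by 0.68 (SE 0.36, adjusted p = 0.345), and passed without −Fe+P replicate 2, its highest sample in that medium, at 1.28 (adjusted p = 0.0120). AT1G13608 differed by 0.37 (SE 0.42, adjusted p = 0.762).

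At 52 h bZIP58 was higher in −Fe−P by 0.81 (SE 0.23, adjusted p = 0.00947), with 2.98 ± 0.681 TPM against 1.46 ± 0.0485 TPM and no overlap. Without −Fe−P replicate 3 the difference was 0.66 and did not pass (adjusted p = 0.0674). AT1G13610 was lower by −1.01 (SE 0.17, adjusted p = 1.1e-04), with 1.80 ± 0.0244 TPM against 4.14 ± 0.315 TPM. So 1 member was higher and 1 lower in limma, where 9.77% of all genes passed as higher and 17.4% as lower. AT1G13607, AT1G13608 and AT1G13609 differed by 0.47, 0.40 and −0.09 (adjusted p = 0.36, 0.526 and 0.846). AT1G13608 nonetheless had all −Fe−P samples above all −Fe+P samples, as 13.0% of genes had, and AT1G13610 had them all below, as 23.8% had.

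At 76 h AT1G13610 was lower in −Fe−P by −1.38 (SE 0.17, adjusted p = 6.98e-07), with 0.884 ± 0.298 TPM against 3.10 ± 0.699 TPM. AT1G13608 was lower by −1.40 (SE 0.42, adjusted p = 0.00808), with 11.6 ± 1.57 TPM against 31.4 ± 1.29 TPM. AT1G13607 was lower by −1.11 (SE 0.36, adjusted p = 0.0121), with 1.37 ± 0.106 TPM against 3.55 ± 0.418 TPM. These 3 were among the 28.8% of genes that passed as lower, and 22.5% passed as higher. AT1G13609 differed by −0.28 (SE 0.27, adjusted p = 0.407), with 1033 ± 17.7 TPM against 1255 ± 107 TPM, although its samples did not overlap. With it, 4 members had all −Fe−P samples below all −Fe+P samples, as 32.5% of genes had, and no member had them all above, as 27.5% had.

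bZIP58 was higher in −Fe−P at 76 h by 0.54 (SE 0.23, adjusted p = 0.0498), and its samples overlapped. This call was near the threshold and was lost when −Fe+P replicate 1 or 3, or else replicate 2 or 3 of −Fe−P, was left out (differences of 0.46, 0.44, 0.39 and 0.44, adjusted p = 0.146, 0.167, 0.211 and 0.163). At 76 h the 8 root markers summed to 24.1 to 49.0 TPM on −Fe−P medium and 16.5 to 21.2 TPM on −Fe+P medium, a list that includes the Fe uptake genes FRO2 and IRT1, and none of the 8 was at 0. The part of such tissue in these differences was not tested. In shoots as a whole, fewer cells of a type and less mRNA per cell cannot be told apart.

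**Figure D3:**
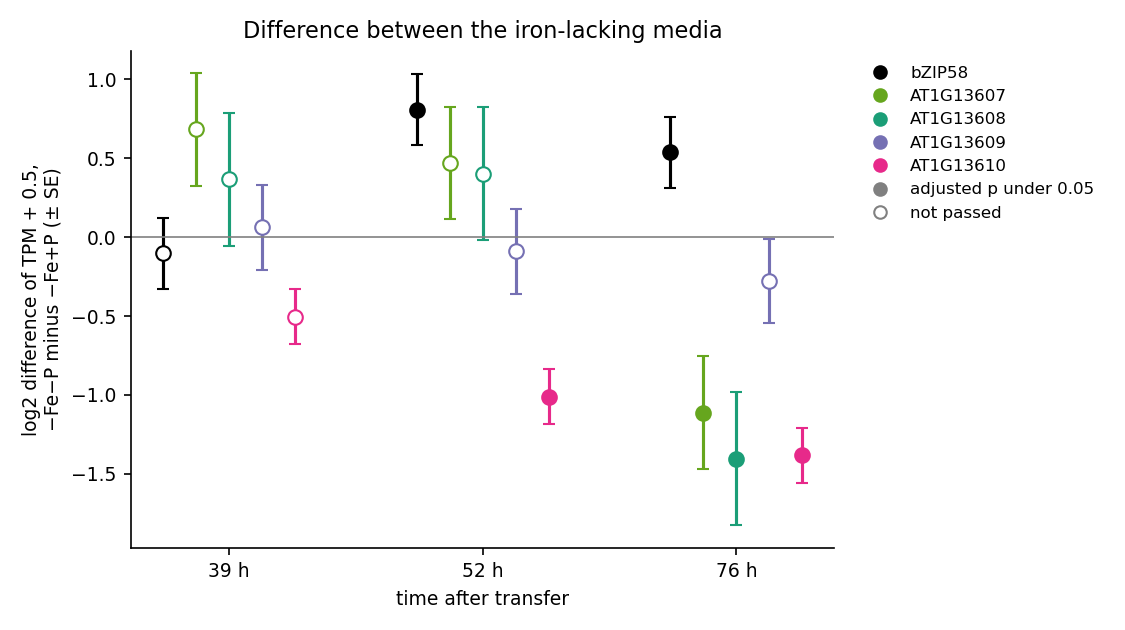
Difference between the media lacking Fe, as −Fe−P minus −Fe+P on the log2(TPM + 0.5) scale, for each gene by time. Points are fitted differences, bars are the SE, and filled points passed an adjusted p under 0.05 in limma. bZIP58 lay at 0.81 and 0.54 at 52 and 76 h, and AT1G13610 went from −0.51 to −1.38.

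The difference between −Fe−P and −Fe+P shifted downwards from 39 to 76 h for 3 of the 5 genes, by −1.80 for AT1G13607 (SE 0.50, adjusted p = 0.0103), −1.77 for AT1G13608 (SE 0.60, adjusted p = 0.0309) and −0.88 for AT1G13610 (SE 0.25, adjusted p = 0.0106). Over all genes, 17.3% passed as a downward and 9.64% as an upward shift in this limma contrast. AT1G13609 had −0.34 (SE 0.38, adjusted p = 0.552) and bZIP58 0.64 (SE 0.32, adjusted p = 0.146). For bZIP58 the shift passed without −Fe−P 76 h replicate 1, at 0.89 (adjusted p = 0.0343). For AT1G13608 it no longer passed when any of 8 samples was left out, namely replicates 1 and 3 of −Fe+P and replicate 3 of −Fe−P at 39 h, all of −Fe+P 76 h in turn, and −Fe−P 76 h replicate 1 or 3 (−1.80 to −1.41, adjusted p = 0.0510 to 0.0888).

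Change with time was tested within each medium, where steps of a medium share the 52 h samples. In −Fe−P from 52 to 76 h, AT1G13607 fell by 1.57 (SE 0.36, adjusted p = 0.00246), AT1G13608 fell by 1.58 (SE 0.42, adjusted p = 0.00858) and AT1G13610 fell by 0.75 (SE 0.17, adjusted p = 0.00294) on the log2 scale. Of all genes 14.2% fell and 9.48% rose in this step in limma. AT1G13609 had −0.48 (adjusted p = 0.210, or 0.0246 with only the groups compared in the fit) and bZIP58 −0.40 (adjusted p = 0.211). In −Fe−P from 39 to 52 h none passed, against 19.7% of genes lower and 15.6% higher in limma, and 1 member, bZIP58, had an unadjusted p under 0.05 (0.52, adjusted p = 0.0741). It passed without −Fe−P 39 h replicate 3, at 0.67 (adjusted p = 0.0455), and was 0.25 without replicate 1 of that group. Without that replicate 1 the difference of bZIP58 between −Fe−P and −Fe+P at 39 h, −0.10 with all samples, was 0.17.

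In −Fe+P no member passed in limma from 39 to 52 h (10.9% of genes rose and 6.01% fell) or from 52 to 76 h (5.29% rose and 6.05% fell). The members with an unadjusted p under 0.05 numbered 0 and 1 in these steps, the 1 being AT1G13610 (−0.38, adjusted p = 0.168). Over the whole span from 39 to 76 h, a contrast added after the values were seen, none passed either (17.4% of genes rose and 16.1% fell), and bZIP58 had −0.52 (adjusted p = 0.0800). That last value passed without −Fe−P 39 h replicate 1 (adjusted p = 0.0408) or without −Fe+P 76 h replicate 2 (−0.70, adjusted p = 0.0362). AT1G13607 had 0.31 (adjusted p = 0.547), and passed without −Fe+P 39 h replicate 2 at 0.90 (adjusted p = 0.0232). In −Fe−P over the same span, AT1G13607, AT1G13608, AT1G13609 and AT1G13610 fell by 1.49, 1.39, 0.67 and 1.11 (adjusted p = 0.00112, 0.00742, 0.0377 and 1.29e-05), where 30.7% of genes fell and 27.8% rose. The fall of AT1G13608 was lost when −Fe−P 39 h replicate 3 was left out (adjusted p = 0.0567). That of AT1G13609 was lost with any 1 of 5 samples left out, −Fe−P 39 h replicate 2 or 3 or any replicate of −Fe−P 76 h (adjusted p = 0.0552 to 0.13), and with no minimum level (adjusted p = 0.0642).

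In the fed shoots AT1G13609 moved down with time, from 163 ± 111 TPM at 39 h to 87.4 ± 21.2 TPM at 52 h and 31.9 ± 7.41 TPM at 76 h. The steps were −0.73 (SE 0.27, adjusted p = 0.0798) and −1.43 (SE 0.27, adjusted p = 0.0572) and did not pass. The first passed without +Fe+P 39 h replicate 1 or 2 (−0.95 and −1.03, adjusted p = 0.0483 and 0.0301), and the second when +Fe+P 52 h replicate 1 was left out, and also without replicate 1 of −Fe−P at 39 h (−1.65 and −1.43, adjusted p = 0.0309 and 0.0409). Over the whole span, added after the values were seen, it fell by 2.16 (SE 0.27, adjusted p = 1.52e-05), with no overlap. AT1G13608 fell by 1.31 over that span (SE 0.42, adjusted p = 0.0330), where 13.4% of genes fell and 6.10% rose, but its samples overlapped and the call was lost without +Fe+P 39 h replicate 1 or 3 or any replicate of +Fe+P 76 h (−1.38 to −0.76, adjusted p = 0.0507 to 0.231), and with a pseudocount of 1, no minimum level or only the groups compared (−1.04, −1.31 and −1.31, adjusted p = 0.0543, 0.0587 and 0.0818). AT1G13607 had −0.68 over that span (adjusted p = 0.18) and passed with a pseudocount of 0.1 alone (−1.70, adjusted p = 0.0178). It held 1 to 9 reads per sample at 39 h and 0 to 1 at 76 h in +Fe+P. The size of this value therefore depends on the pseudocount, and the call is not read as a change. AT1G13607 reached the minimum mean through the media lacking Fe, since it averaged 0.406, 0.159 and 0.0312 TPM in +Fe+P. From 39 to 52 h 11.4% of genes passed in +Fe+P in either direction, and from 52 to 76 h 0.00% fell and 0.0212% rose, with 0 members passing in limma in either step and 1 and 2 members at an unadjusted p under 0.05. bZIP58 had 0.28 and −0.06 in these steps (adjusted p = 0.438 and 0.989).

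Ratios within a sample show how the neighbours moved relative to each other, as a description. Their size depends on the gene lengths behind the TPM, while their order between media does not. For AT1G13608 that length was 237 bp, against 636 bp for its transcript model. AT1G13607 stood at 10.3% to 13.5% of AT1G13608 in the 6 samples lacking Fe at 76 h, and at 11.8% to 15.6% in those at 52 h. At 39 h the range was 7.11% to 14.8% in −Fe+P and 13.3% to 19.97% in −Fe−P. AT1G13608 stood at 2.29% to 2.64% of AT1G13609 in −Fe+P at 76 h and at 1.01% to 1.31% in −Fe−P, whereas at 52 h it was at 1.70% to 1.78% and 2.07% to 2.90%. The order of the media was therefore opposite at these times. AT1G13610 stood at 0.20% to 0.274% of AT1G13609 in −Fe+P at 76 h and at 0.0587% to 0.114% in −Fe−P, and at 1.69% to 3.42% in +Fe+P.

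**Figure D4:**
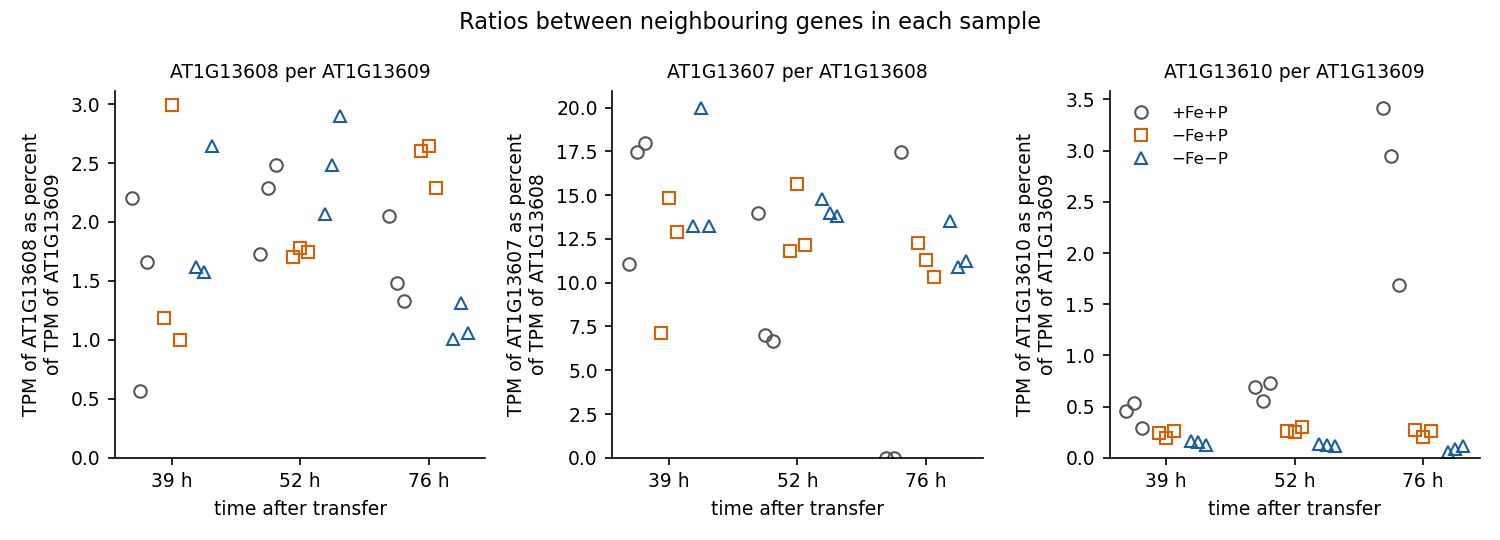
TPM of one neighbour as a percentage of another in the same sample, by time and medium, with 1 symbol per sample on linear axes from 0. AT1G13608 per AT1G13609 at 76 h was 2.29% to 2.64% in −Fe+P and 1.01% to 1.31% in −Fe−P. In +Fe+P at 76 h the values of AT1G13607 rest on 1 read.

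Over the 27 samples, log2(TPM + 0.5) of bZIP58 and of each neighbour were negatively correlated, with Pearson r of −0.588 for AT1G13607, −0.649 for AT1G13608, −0.697 for AT1G13609 and −0.705 for AT1G13610. Samples of a group share their medium and time, and the rule chose this opposition. After the 9 group means were taken out, the same correlations were 0.381, 0.283, 0.119 and 0.003, and the last ran from −0.161 to 0.131 with single samples left out. The defensin-like members kept positive correlations within groups, 0.806 for AT1G13607 with AT1G13608, 0.704 for AT1G13608 with AT1G13609 and 0.514 for AT1G13607 with AT1G13609. For instance, replicate 3 of +Fe+P at 39 h was the highest of its group for all 3, and replicate 2 of −Fe+P at 39 h was the highest of its group for AT1G13607 and AT1G13608. AT1G13610 had 0.50 with AT1G13609, 0.211 with AT1G13608 and 0.002 with AT1G13607. Values of 1 sample share its library and scaling.

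**Figure D5:**
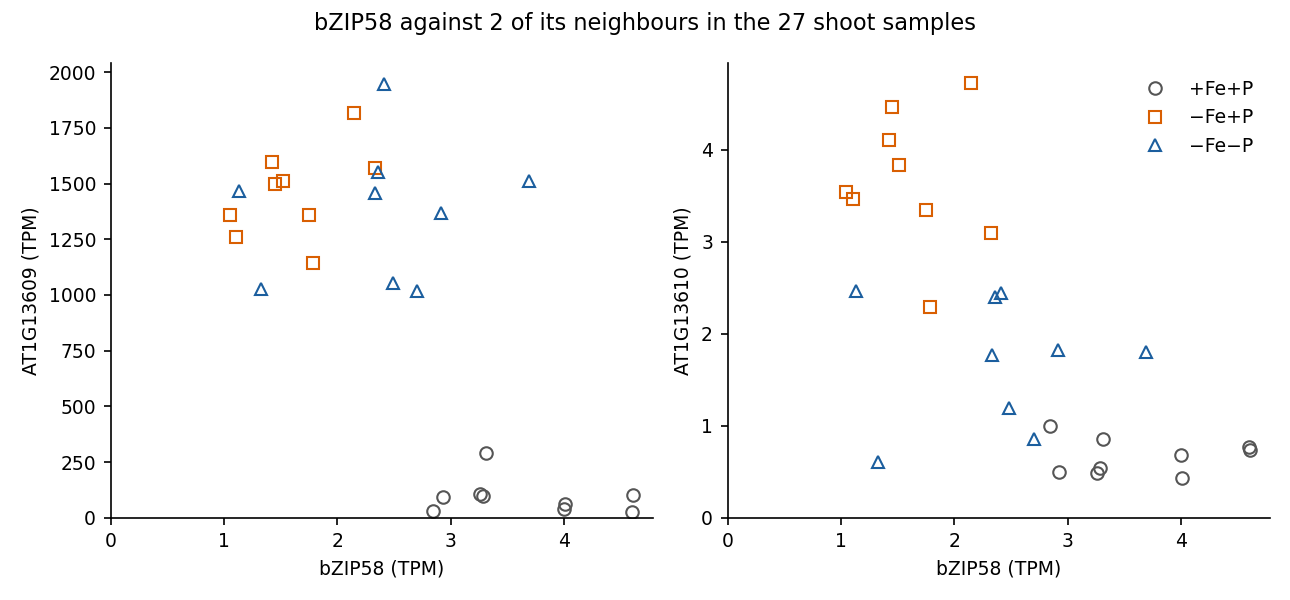
TPM of AT1G13609 (left) and AT1G13610 (right) against TPM of bZIP58, with 1 symbol for each of the 27 samples and a symbol for each medium. The +Fe+P samples lie at 2.84 TPM of bZIP58 or more and 291 TPM of AT1G13609 or less, and the samples lacking Fe lie at 1019 TPM of AT1G13609 or more.

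Genes elsewhere in the genome with the most similar pattern were ranked by Pearson r over the 27 samples. For bZIP58 these were AT1G76800, a gene of the vacuolar iron transporter family (r = 0.879), and the photosystem I subunit genes PSAH-1 (0.855) and PSAG (0.847), which had r of 0.613, 0.286 and 0.389 with bZIP58 within groups. For AT1G13609 they were AT2G14247, of no annotated function (0.997), ORG1 (0.994) and ZIF1, the zinc induced facilitator (0.994). Within groups these had r of 0.933, 0.842 and 0.840 with AT1G13609. For AT1G13608 they were AT1G47395 (0.970), bHLH38, a regulator of Fe uptake genes (0.969), and AT2G14247 (0.965), or 0.619, 0.693 and 0.606 within groups. For AT1G13607 they were bHLH38 (0.938), AT1G47395 (0.933) and AT3G02480, a late embryogenesis abundant gene (0.932), or 0.505, 0.434 and 0.406 within groups. For AT1G13610 they were AT1G03990, a long-chain fatty alcohol dehydrogenase gene (0.951), the kinase gene ATPK7 (0.95) and AT4G36700, a cupin gene (0.921), or 0.462, 0.318 and 0.60 within groups. Leaving out any single sample kept each of the 15 correlations over the 27 samples at 0.826 or above.

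Other genes around the locus were described for comparison. Of 21 other genes in the table from AT1G13500 to AT1G13700, 9 reached the minimum mean of 1 TPM. AT1G13605, between bZIP58 and AT1G13607, reached 0.655 TPM at most and was listed at 0 in 12 samples. The nearest genes outside, PSK1 (AT1G13590) and RGF2 (AT1G13620), averaged 0.191 and 0.264 TPM. In −Fe−P against −Fe+P in limma, 2.87%, 9.77% and 22.5% of all genes passed as higher and 2.07%, 17.4% and 28.8% as lower at 39, 52 and 76 h. Of the 9, 0, 0 and 0 passed as higher and 0, 1 and 4 as lower, with medians of −0.08, 0.01 and −0.38 against −0.00, −0.03 and −0.03 over all genes. Of those near the locus, AT1G13570 had −0.27 (adjusted p = 0.0917) and LAG13 (AT1G13580), a ceramide synthase gene, −0.35 (adjusted p = 0.0813) at 76 h. AT1G13630 and AT1G13640 fell by 0.66 and 0.48 (adjusted p = 4.45e-04 and 0.00195).

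AT1G13650, which starts 14159 bp beyond AT1G13610, stood lower in Fe lack, as bZIP58 did. In ascending order, its samples at 76 h held 34.8, 36.7 and 40.6 TPM on +Fe+P medium, 7.95, 8.30 and 8.35 TPM on −Fe+P medium, and 8.02, 10.1 and 12.4 TPM on −Fe−P medium. Both media lacking Fe lay far below the control. Under −Fe+P its difference from the control was −1.27, −2.11 and −2.12 at 39, 52 and 76 h (SE 0.20, adjusted p = 2.64e-04, 8.81e-08 and 5.6e-08). Between the media lacking Fe it had −0.08, 0.17 and 0.28 (adjusted p = 0.916, 0.593 and 0.274), so the difference between the media lacking Fe was not shown for it.

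Other defensin-like genes were mostly low in these shoots, since 27 of 211 reached the minimum mean of 1 TPM. Against the control, under −Fe+P in limma, 0, 1 and 5 of the 27 were higher and 0, 1 and 3 lower at 39, 52 and 76 h, with 3.43%, 28.5% and 29.5% of all genes higher and 2.45%, 3.57% and 9.43% lower. At 39 h 3 were higher and 4 lower at an unadjusted p under 0.05. The medians were −0.06, −0.02 and 0.07 against 0.05, 0.16 and 0.11 over all genes. In −Fe−P against −Fe+P, 2.87%, 9.77% and 22.5% of all genes were higher and 2.07%, 17.4% and 28.8% lower. Of the 27, 2, 9 and 9 were higher and 1, 2 and 5 lower. The largest changes there at 76 h were in PDF1.2c (−3.69), AT2G43535 (3.63) and PDF1.2 (−3.51).

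Among 15 plant defensin genes of a list overlapping the last, 11 were tested. In −Fe−P against −Fe+P 2.87%, 9.77% and 22.5% of all genes were higher and 2.07%, 17.4% and 28.8% lower at 39, 52 and 76 h. Of the 11, 1, 3 and 2 were higher and 1, 2 and 4 lower, with medians of 0.19, 0.05 and −0.06 against −0.00, −0.03 and −0.03 over all genes. LCR67, on both lists, reached the minimum through 1 sample, replicate 1 of −Fe−P at 39 h with 27.0 TPM, and was at 0.40 TPM at most in the others. Without it, in a choice made after the values were seen, these medians were 0.01, −0.14 and −0.26. PDF1.2 (AT5G44420), a jasmonate-responsive defensin gene, held, in ascending order, 41.8, 62.7 and 94.3 TPM on −Fe+P medium and 3.15, 6.04 and 6.62 TPM in −Fe−P at 76 h (log2 difference −3.51, adjusted p = 4.45e-07). PDF1.2b also fell, by 3.09 (adjusted p = 2.76e-06). The PDF1.2 copies are alike in sequence, so reads may be split between them. Under −Fe+P, against the control, 0, 0 and 2 were higher and 0, 1 and 1 lower in limma, with 1 higher and 1 lower at an unadjusted p under 0.05 at 39 h and 1 higher and 1 lower at 52 h. Of all genes 3.43%, 28.5% and 29.5% were higher and 2.45%, 3.57% and 9.43% lower in that comparison.

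Of the 16 other group S bZIP genes, 8 averaged less than 1 TPM, 3 were tested and 5 were listed at 0 in all samples. In a table without counts a 0 in every sample may be a failed estimate, and it is not read as a level here. None of the 3 passed in −Fe−P against −Fe+P in limma, with 0, 0 and 1 at an unadjusted p under 0.05, and bZIP3, bZIP6 and bZIP7 had −0.11, −0.23 and 0.38 at 76 h (adjusted p = 0.656, 0.160 and 0.0828). Between these media 2.87%, 9.77% and 22.5% of all genes were higher and 2.07%, 17.4% and 28.8% lower at 39, 52 and 76 h. Against the control, bZIP3 was lower under −Fe+P at 76 h by −0.53 (adjusted p = 0.0348), and had −0.51 and 0.07 at 39 and 52 h (adjusted p = 0.13 and 0.801). Under −Fe−P it had −0.60, −0.11 and −0.64 against the control (adjusted p = 0.04, 0.681 and 0.00779). bZIP6 was lower there at 52 h by −0.48 (adjusted p = 0.00544), and bZIP7 did not pass. Of the 4 group C genes, BZO2H1 (bZIP10) was higher under −Fe−P at 76 h by 1.07 (adjusted p = 9.41e-08), BZO2H3 (bZIP63) was lower by −0.93 (adjusted p = 0.00831), and bZIP9 and bZIP25 had −0.29 and −0.01 (adjusted p = 0.129 and 0.916). At 39 h 0 of the 4 passed in limma and 0 had an unadjusted p under 0.05, and at 52 h 1 passed, BZO2H1, as higher. Against the control at 76 h, under −Fe+P and −Fe−P, bZIP9 had 1.22 and 0.93 (limma, adjusted p = 2.01e-06 and 2.46e-05). bZIP25 had 0.25 and 0.24 (adjusted p = 0.00585 and 0.00496). BZO2H1 had −0.23 and 0.84 (adjusted p = 0.124 and 3.29e-06), and BZO2H3 had 0.36 and −0.57 (adjusted p = 0.329 and 0.0905).

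The study set 10 genes around bZIP58, of ascorbate synthesis and transport and of photosynthesis besides the NAC transcription factor gene JUB1, and chose them with these samples known, so their counts are not independent evidence. Of these 9 were tested, since JUB1 (NAC042) averaged 0.660 TPM. In −Fe−P against −Fe+P 2.87%, 9.77% and 22.5% of all genes were higher and 2.07%, 17.4% and 28.8% lower in limma at 39, 52 and 76 h. Of the 9, 3, 7 and 7 were higher and 0, 0 and 0 lower, with medians of 0.12, 0.47 and 0.47. The largest changes at 76 h were in the ascorbate synthesis genes VTC4 (2.0, SE 0.10), VTC2 (1.73, SE 0.12) and VTC1 (CYT1, 1.39, SE 0.09). The photosynthesis genes PTAC16, PSBTN, PSBW and LHCB4.1 were higher by 0.56, 0.47, 0.41 and 0.31 (adjusted p = 5.36e-06, 0.00194, 0.00529 and 0.0153). In −Fe−P at 76 h these genes still stood below the control, at −0.72, −0.50, −0.50 and −0.78 (limma, adjusted p = 2.1e-07, 0.00105, 9.23e-04 and 1.31e-06). Between the media lacking Fe at 76 h, the remaining genes were as follows. AT1G51400, the photosystem II 5 kD gene, had 0.40 (adjusted p = 0.337), and the chloroplast ascorbate transporter gene AT4G00370 had −0.20 (adjusted p = 0.0658).

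Among 9 regulators of Fe deficiency, all 9 passed as higher relative to +Fe+P at each time in both media. Of all genes 3.43%, 28.5% and 29.5% did so under −Fe+P, and 10.8%, 28.8% and 33.7% under −Fe−P. At 76 h bHLH38 was lower in −Fe−P by −1.09 (SE 0.43, adjusted p = 0.0380), bHLH39 had −1.01 (adjusted p = 0.0530) and BHLH100 had −0.69 (adjusted p = 0.209). In all, 0, 0 and 0 of the 9 were higher and 0, 1 and 1 lower in limma at 39, 52 and 76 h, the 52 h one being PYE, with medians of −0.04, −0.35 and −0.43. Of all genes 2.87%, 9.77% and 22.5% were higher and 2.07%, 17.4% and 28.8% lower between these media.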

How the data were processed

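Poly(A) RNA of shoots was sequenced in 27 samples, 3 for each of 9 groups. The authors deposited TPM values per gene for all samples in 1 table of 33602 genes. The submitters' processing notes name HISAT2, DESeq2 and TAIR10, without versions. How TPM was computed, and whether strand was used, is not given in the sources used here. TPM is relative, so a shift in abundant genes moves all others. Read numbers were recovered from the steps of the TPM values within each gene, and serve only to describe depth and counting error.

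Genes averaging 1 TPM or more (18910, all 5 members among them) were tested on log2(TPM + 0.5) in R 4.3.3 with limma 3.58.1 (1 mean per group, all 27 samples, eBayes with trend, Benjamini-Hochberg adjustment over all genes tested, threshold 0.05). The test was checked on simulated data, drawn as normal values with the same SD of a gene in every group. That check does not cover genes with few reads or with unequal spread between groups. The 5 members, the lists and the rule for named genes were chosen with earlier results of these data known. Named genes were the members, genes from AT1G13500 to AT1G13700, the 3 genes with the highest r for each member, and in each list the 3 with the largest change between −Fe−P and −Fe+P at 76 h and those the study names. The spans from 39 to 76 h within a medium were added after the values were seen. Positions and sequences are from RefSeq TAIR10.1. The gene lengths behind the deposited TPM differed from those models (12.8% of 23364 genes had equal lengths), and were 683, 339, 237, 444 and 1310 bp for the members in chromosomal order. Alternatives were other pseudocounts (0.1 and 1) and minimum means (none and 5 TPM), median of ratios scaling, a replicate block, other eBayes settings, only the groups compared, and each sample left out in turn.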

Additional observations from a re-analysis of the deposited data

Results flagged for a closer look

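The difference between −Fe−P and −Fe+P changed from 39 to 76 h, by a test of that change in limma, for 3 of the 5 genes. Of all genes, 17.3% passed as a downward and 9.64% as an upward change in this test. AT1G13607 changed by −1.80 (SE 0.50, adjusted p = 0.0103), AT1G13608 by −1.77 (SE 0.60, adjusted p = 0.0309) and AT1G13610 by −0.88 (SE 0.25, adjusted p = 0.0106) on the log2(TPM + 0.5) scale. For AT1G13607 and AT1G13608 the difference went from 0.68 and 0.37 at 39 h to −1.11 and −1.40 at 76 h, and for AT1G13610 from −0.51 to −1.38. The call of AT1G13607 was lost in limma with only the groups compared in the fit (adjusted p = 0.051). That of AT1G13608 was lost with a smaller pseudocount or no minimum level (adjusted p = 0.0593 and 0.0582). It was also lost when any of several single samples was left out, such as −Fe−P 39 h replicate 3 (−1.41, adjusted p = 0.0888).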

How the results depend on the processing

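No difference of a member between −Fe−P and −Fe+P, and no change of it from 39 to 76 h, reversed a call under any alternative. bZIP58 at 76 h no longer passed with a pseudocount of 1 (0.44, adjusted p = 0.0554), with no minimum level (0.54, adjusted p = 0.0789) or with only the groups compared in the fit (0.54, adjusted p = 0.0944), and ranged from 0.39 to 0.79 with single samples left out. At 52 h it ranged from 0.66 to 0.95. AT1G13609 at 76 h passed with only the groups compared (−0.28, adjusted p = 0.0483), and so did its change from 52 to 76 h in −Fe−P (−0.48, adjusted p = 0.0246) and that of bZIP58 from 39 to 76 h in −Fe+P (−0.52, adjusted p = 0.0458). The change from 39 to 76 h no longer passed for AT1G13607 with only the groups compared (−1.80, adjusted p = 0.0510), nor for AT1G13608 with a pseudocount of 0.1 (−1.81, adjusted p = 0.0593) or no minimum level (−1.77, adjusted p = 0.0582). The causes were not tested. A minimum of 5 TPM leaves out bZIP58, AT1G13607 and AT1G13610. With single samples left out, the difference of AT1G13607 at 39 h ranged from 0.19 to 1.28, and the change from 39 to 76 h from 0.37 to 0.89 for bZIP58 and from −2.25 to −1.41 for AT1G13608.

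The values against +Fe+P, given with no test, kept their sign in every alternative, except AT1G13610 under −Fe−P at 76 h (−0.10 to 0.21), and moved with the pseudocount for the low genes. With 0.1 and 1 in place of 0.5, AT1G13610 was at 2.44 and 1.54, 2.68 and 1.71, and 1.79 and 1.16 under −Fe+P in order of time, and at 1.87 and 1.1, and 1.52 and 0.84 under −Fe−P at 39 and 52 h. AT1G13607 was at 2.78 with 0.1 at 39 h, and at 3.80 and 1.96, and 4.87 and 2.14 with 0.1 and 1 at 52 and 76 h under −Fe+P. Under −Fe−P it was at 3.57 and 2.07, 4.31 and 2.39, and 3.56 and 1.20. AT1G13608 at 76 h was at 5.71 under −Fe+P and 4.28 under −Fe−P with 0.1. At 39 h, with single samples left out, AT1G13607 ranged from 1.35 to 2.44, AT1G13608 from 2.66 to 3.85 and AT1G13609 from 3.16 to 3.98 under −Fe+P, and AT1G13608 from 3.02 to 4.21 and AT1G13609 from 3.22 to 4.04 under −Fe−P.

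Over all genes, replicate numbers showed no pairing of the samples. Deviations of same-numbered samples correlated at −0.415 to 0.365 (27 of 108 pairs over 0.1), and those of samples with different numbers at −0.451 to 0.534 (58 of 216). For bZIP58 and AT1G13609 a replicate block nonetheless lowered the SE, from 0.225 to 0.199 and from 0.269 to 0.225. With the replicate block, bZIP58 at 76 h stayed at 0.54 (SE 0.20, adjusted p = 0.0288), and AT1G13609 in +Fe+P passed from 39 to 52 h (−0.73, adjusted p = 0.0420) and from 52 to 76 h (−1.43, adjusted p = 0.0155), as did bZIP58 in −Fe−P from 39 to 52 h (0.52, adjusted p = 0.0456) and in −Fe+P from 39 to 76 h (−0.52, adjusted p = 0.0492).

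Of all genes, with only the groups compared, 202 passed in −Fe−P against −Fe+P at 39 h (935 in the fit of all groups) and 3042 at 52 h (5131). That setting gave 1933 in place of 3198 in −Fe+P and 2482 in place of 6680 in −Fe−P from 39 to 52 h, 2483 in place of 4475 in −Fe−P from 52 to 76 h, and 6902 in place of 3680 in +Fe+P from 39 to 76 h. From 52 to 76 h in +Fe+P 4 genes passed, against 10 with a pseudocount of 1, 7 with no minimum, 19 with median of ratios and 1 with only the groups compared. AT1G13609 passed there with a pseudocount of 1 (−1.42, adjusted p = 0.0475) and with median of ratios (−1.46, adjusted p = 0.0371). Single samples also moved these counts. In −Fe−P against −Fe+P at 39 h 533, 493, 1448 and 549 genes passed without −Fe+P replicate 1 or 3 or −Fe−P replicate 1 or 2. In +Fe+P the 2161 genes from 39 to 52 h became 952, 1036, 1417 and 959 without replicate 2 or 3 of 39 or 52 h, the 3680 from 39 to 76 h became 2395, 2015, 1949 and 1796 without replicate 2 or 3 of 39 or 76 h, and the 4 from 52 to 76 h became 9, 0, 2 and 0 without replicate 1 or 2 of 52 h or 2 or 3 of 76 h, and 27 without replicate 1 of −Fe−P at 39 h. In −Fe+P the 3198 from 39 to 52 h became 1667, 2087 and 1943 without replicate 2 or 3 of 39 h or 3 of 52 h, and the 2145 from 52 to 76 h became 1246, 1166 and 1351 without replicate 3 of 52 h or 1 or 2 of 76 h. At 23 to 110 reads of bZIP58 per sample, counting error limits what can be seen for it.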
